A study of Sus scrofa domesticus with 4 samples.

Results

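The genes of the class II antigen presentation pathway were compared between the anterior pituitaries of pregnant and cyclic gilts. All 7 genes chosen had probes on the array: the antigen-binding chains SLA-DRA, SLA-DRB1, SLA-DQA1 and SLA-DQB1, the exchange factor chains SLA-DMA and SLA-DMB, and CD74, the invariant chain. They are 7 of 2459 genes that could be named, and their 28 probes are 28 of 43603 on the array. A probe belongs to a gene when its RefSeq accession, without the version, is listed for that gene in the NCBI table of pig genes.

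RNA came from 8 mature gilts, that is, females that have not yet farrowed, each a separate individual of a Large White x Polish Landrace cross. The 4 pregnant gilts had been mated naturally and were killed on days 12 to 13 of pregnancy, when the maternal body first responds to the conceptuses, and the 4 cyclic gilts on days 12 to 13 of the estrous cycle. Each of 4 two-colour Agilent arrays carried RNA of 1 pregnant and 1 cyclic gilt. Per the sample labels, pregnant RNA was in Cy3 on arrays 1 and 3 and in Cy5 on arrays 2 and 4. The labelling protocol instead reads as though pregnant RNA was always in Cy3. Values here follow the sample labels.

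Class II molecules are pairs of an alpha and a beta chain that show peptides from engulfed material to CD4+ T cells. DR and DQ are the pairs that present peptide, and in pigs, as in other mammals, several of their chains are highly variable between animals. CD74 holds new pairs in the endoplasmic reticulum, fills their groove and guides them to endosomes, where DM exchanges its last fragment for a peptide. In most tissues the pathway is carried by macrophages, dendritic cells and B cells, and other cells can take it up under interferon gamma. In the NCBI gene table SLA-DRA, SLA-DRB1, SLA-DQA1, SLA-DQB1, SLA-DOB, SLA-DMB, SLA-DMA and SLA-DOA follow each other in this order on 1 chromosome, while CD74 lies on another.

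Between 47.5% and 67.9% of spots were well above background in Cy3 on the 4 arrays, and between 60.7% and 71.8% in Cy5. The SD of the ratios over probes ran from 0.276 to 0.581, and it was highest on array 3. Array 4 had a dim area of 4950 spots (10.9%). It held the array 4 spots of 1 SLA-DQA1 probe and 1 SLA-DMA probe. All 10 genes fixed as markers of pituitary endocrine cells were measured, with a mean log2 level of 13.48 to 14.42 in pregnant gilts and 14.03 to 14.27 in cyclic gilts.

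No class II gene passed the test between pregnant and cyclic gilts. By single probe and by the average over a gene's probes, the widest difference was at SLA-DQB1, where all 4 probes had a higher fitted level in pregnant gilts. By the brightest tested probe SLA-DQA1 was wider, with a log2 ratio of 0.39 against 0.34 for SLA-DQB1. All 5 tested DR probes and both CD74 probes had a lower fitted level in pregnant gilts, and the DM genes lay near no difference. The brightest SLA-DRA probes, left untested for their flags, also lay near no difference when flagged spots were kept. The sign of the ratio differed between arrays for most probes, and it was shared among most DR and CD74 probes of an array. In bulk tissue such as this, fewer cells of a type and less RNA per cell cannot be told apart.

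For every probe limma fitted a group difference, given as pregnant over cyclic on the log2 scale, and a dye effect. A probe was tested if it was well above background on all 4 arrays in at least 1 group and had no outlier flag on at least 3 arrays. Of 21627 probes tested, 0 (0%) had an adjusted p under 0.05, and the smallest was 0.0761 (limma, Benjamini-Hochberg). At an unadjusted p under 0.05 there were 3904 probes, 18.1% of those tested, with 2257 higher and 1647 lower in pregnant gilts. All 7 class II genes had a tested probe. Of their 28 probes 17 were tested, 10 had too many flagged spots and 1 was too dim. Among the 17, 8 fitted ratios were positive and 9 negative. An unadjusted p under 0.05 was reached by 5 of the 17, of which 2 were positive and 3 negative, to be read against the 18.1% of all probes. Taking for each gene its brightest tested probe, 4 ratios were positive and 3 negative, with a median of 0.01 on the log2 scale. The median over all tested probes was also 0.01.

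**Figure D1:**
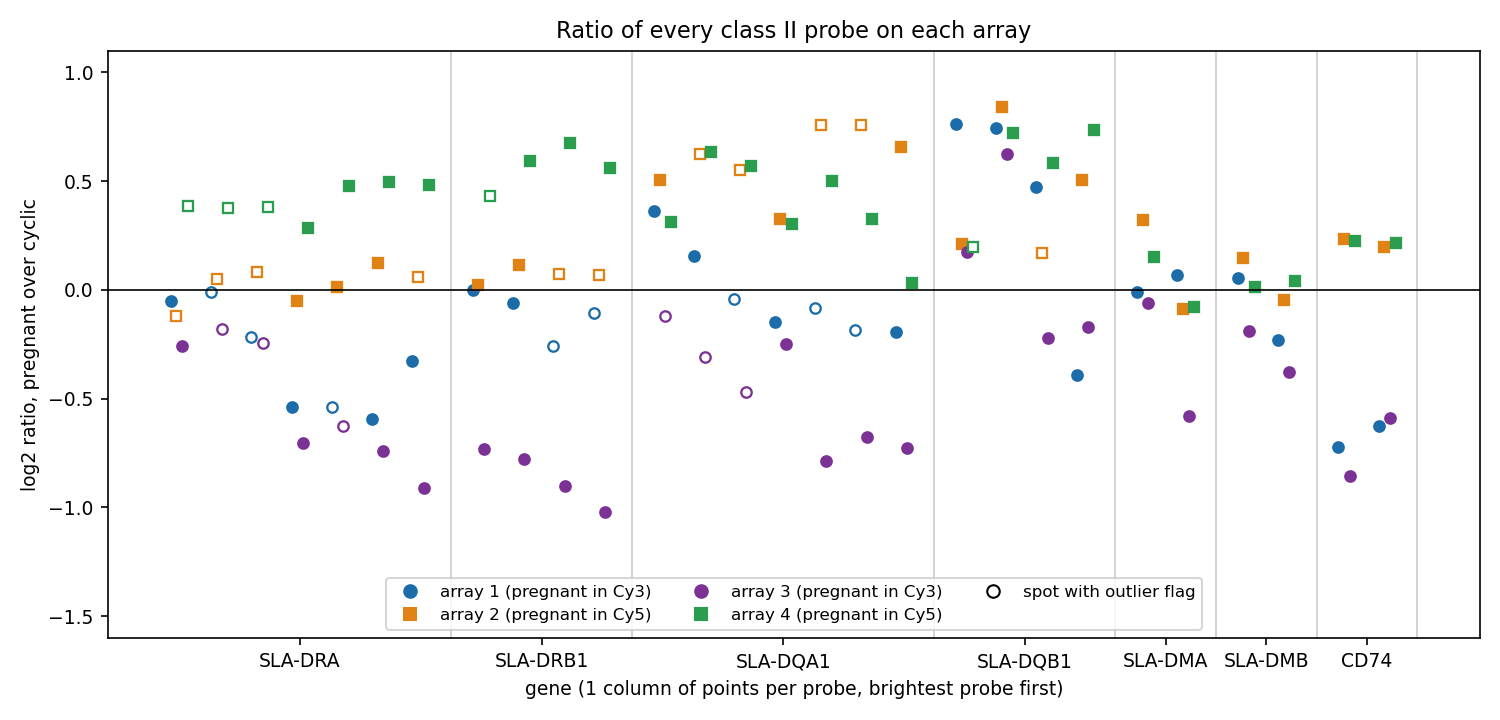
Log2 ratio of pregnant over cyclic (vertical axis) of each of the 28 probes on each array, with the probes of a gene side by side and the brightest first. Open symbols are spots with an outlier flag. On arrays 1 and 3 most points lie below 0 and on arrays 2 and 4 most lie above it, while the 4 points of the second SLA-DQB1 probe all lie between 0.63 and 0.84.

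SLA-DQB1 is the beta chain of the DQ pair. The probe A_72_P585101 had log2 levels of 12.34, 12.35, 11.83 and 11.99 in the pregnant gilts of arrays 1 to 4, against 11.59, 11.51, 11.20 and 11.27 in the cyclic gilts. Every pregnant gilt thus lay above every cyclic gilt for this probe, and the ratio was positive on all 4 arrays. The means were 12.13 ± 0.26 in pregnant and 11.39 ± 0.19 in cyclic gilts (SD, n = 4 each). The fitted log2 ratio was 0.73 ± 0.0797 (SE), a 1.66-fold higher level in pregnant gilts, with an unadjusted p of 0.000306 and an adjusted p of 0.235 (limma). It did not pass the test, and 0.0601% of the tested probes had a smaller p. Without array 1 its adjusted p was 0.0140, in a fit in which 3401 of 20323 probes passed, and in a separate-channel fit it was 0.0142, with 1046 of 19880 passing (limma). With pregnant RNA read as Cy3 on all arrays its ratio was -0.048, with an adjusted p of 0.973. Groups that do not overlap, with pregnant gilts higher, were found for 452 of 19880 probes measured on 4 arrays (2.27%). Of 13 class II probes without a flagged spot it was the 1 with this pattern. It was also the 1 of the 13 with a positive ratio on all 4 arrays, a pattern of 14.6% of probes, and 0 of the 13 had a negative ratio on all 4, a pattern of 11.3%.

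The other SLA-DQB1 probes gave smaller and less even ratios. A_72_P039061, the brightest, had log2 levels of 13.10, 12.42, 12.31 and 12.21 in the pregnant gilts, against 12.34, 12.21, 12.14 and 12.01 in the cyclic gilts, the last value of each group from a flagged spot. Each pregnant gilt lay above the cyclic gilt of its array, by 0.76 on array 1 and by 0.17 to 0.21 on the others. Without the flagged spot its ratio was 0.34 ± 0.33 (SD, n = 3), with an adjusted p of 0.363 (limma). For A_72_P672583 the ratios on arrays 1 to 4 were 0.47, 0.17, -0.22 and 0.58, of which the second was flagged, with a fit of 0.36 ± 0.436 (SD, n = 3). For A_72_P631166 they were -0.39, 0.50, -0.17 and 0.74, with a fit of 0.17 ± 0.536 (SD, n = 4). Probes of this gene disagreed in sign on array 1, with 3 positive and 1 negative, and on array 3, with 2 positive and 2 negative. Averaged over the 4 probes, with flagged spots kept, the ratio was 0.40, 0.43, 0.10 and 0.56 on arrays 1 to 4. This was the only class II gene whose average was above 0 on every array.

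SLA-DQA1, the alpha chain of the DQ pair, had 7 probes, of which 3 were tested, 2 with a positive fit and 1 with a negative one. The brightest tested probe, A_72_P721473, had log2 levels of 12.61, 12.32, 11.79 and 12.67 in the pregnant gilts of arrays 1 to 4, against 12.25, 11.81, 11.91 and 12.36 in the cyclic gilts. On arrays 1, 2 and 4 the pregnant gilt was higher, on array 3, where the spot was flagged, the cyclic gilt was, and the groups overlapped. Without array 3 the fitted ratio was 0.39 ± 0.101 (SD, n = 3), 1.31-fold, with an unadjusted p of 0.0281 and an adjusted p of 0.247 (limma). With array 3 kept it was 0.26 ± 0.27 (SD, n = 4), with an adjusted p of 0.289.

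The remaining SLA-DQA1 probes placed the pregnant gilt higher on arrays 2 and 4 and, apart from 1 probe on array 1, lower on arrays 1 and 3. A_72_P763148 had ratios of -0.15, 0.32, -0.25 and 0.31 and a fit of 0.06, with an adjusted p of 0.721 (limma). A_72_P750437 had ratios of -0.19, 0.66, -0.73 and 0.03 and a fit of -0.06, with an adjusted p of 0.865. Its array 4 spot lay in the dim area, at log2 levels of 7.16 in the pregnant and 7.13 in the cyclic gilt. The 4 untested probes had ratios of -0.19 to 0.16 on array 1 and -0.79 to -0.31 on array 3, but 0.55 to 0.76 on array 2 and 0.33 to 0.64 on array 4. With flagged spots kept, 6 of the 7 probes had a positive fit, between -0.06 and 0.28 in all. The gene's average was -0.02, 0.60, -0.48 and 0.38 on arrays 1 to 4, so its sign was not shared by the arrays.

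SLA-DRA is the alpha chain of the DR pair. Its 3 tested probes had fitted ratios of -0.25 to -0.07. The brightest tested probe, A_72_P640825, had log2 levels of 12.29, 12.68, 12.36 and 11.97 in the pregnant gilts of arrays 1 to 4, against 12.83, 12.73, 13.07 and 11.68 in the cyclic gilts. The pregnant gilt was lower on arrays 1 and 3, close to the cyclic gilt on array 2 and higher on array 4, and the groups overlapped. The fitted ratio was -0.25 ± 0.0964 (SE), 1.19-fold lower in pregnant gilts, with an unadjusted p of 0.049 and an adjusted p of 0.275 (limma). The SD over the 4 arrays was 0.452, since the SE is what remains after a dye effect of 0.37 is fitted. Without the dye effect the unadjusted p was 0.207 (limma), and under median centring in place of loess the ratio was -0.095, with an unadjusted p of 0.495.

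In the other SLA-DRA probes arrays 1 and 3 were again negative and array 4 positive. A_72_P610249 had ratios of -0.59, 0.12, -0.74 and 0.50, with a fit of -0.18 and an adjusted p of 0.388 (limma). A_72_P561324 had -0.33, 0.06, -0.91 and 0.48, with the second flagged, a fit of -0.07 and an adjusted p of 0.856. The 4 untested probes ranged from -0.54 to -0.01 on array 1 and from -0.63 to -0.18 on array 3. On array 2 they ranged from -0.12 to 0.08, and on array 4 they were all positive, at 0.38 to 0.48. The distance from the lowest to the highest array was 0.56 to 0.64 for the 3 brightest of the 7 probes and 0.99 to 1.39 for the other 4. The 3 brightest also held 10 of the 13 flagged spots of this gene. With flagged spots kept, their fits were -0.01, 0.06 and -0.0004, the brightest first. Of all 7 probes 1 then had a positive fit, and the fits ran from -0.25 to 0.06.

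SLA-DRB1, the beta chain of the DR pair, had its lowest ratio on array 3 and its highest on array 4, as had A_72_P640825 of SLA-DRA. Its brightest tested probe, A_72_P110316, had log2 levels of 11.80, 11.56, 11.51 and 11.23 in the pregnant gilts of arrays 1 to 4, against 11.80, 11.54, 12.25 and 10.80 in the cyclic gilts, with the array 4 spot flagged. The 2 gilts were level on arrays 1 and 2, the cyclic gilt was higher on array 3 and the pregnant gilt on array 4. Its fit was -0.17 ± 0.429 (SD, n = 3), with an adjusted p of 0.672 (limma). It was -0.070 with the flagged spot kept and -0.053 under median centring. A_72_P545751, measured on all 4 arrays, had levels of 11.76, 11.54, 11.25 and 11.51 in pregnant gilts, against 11.82, 11.43, 12.03 and 10.92 in cyclic gilts. Its fit was -0.03 ± 0.57 (SD, n = 4), with an adjusted p of 0.933. Both untested probes had the same order, at -0.26, 0.07, -0.90 and 0.67 for A_72_P079096 and -0.11, 0.07, -1.02 and 0.56 for A_72_P626735.

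CD74 had 2 probes, both tested and both without a flagged spot. A_72_P223292 had log2 levels of 9.54, 9.98, 10.24 and 9.90 in the pregnant gilts of arrays 1 to 4, against 10.27, 9.75, 11.10 and 9.67 in the cyclic gilts. The cyclic gilts of arrays 1 and 3 were the highest of the 8, and the groups overlapped. The fitted ratio was -0.28 ± 0.078 (SE), 1.21-fold lower in pregnant gilts, with a dye effect of 0.51, an unadjusted p of 0.0165 and an adjusted p of 0.237 (limma). The SD over the arrays was 0.591, and without the dye effect the unadjusted p was 0.257. Under median centring the ratio was -0.16, with an unadjusted p of 0.208 (limma). A_72_P796773 had levels of 9.30, 9.55, 9.88 and 9.08 in pregnant gilts, against 9.93, 9.35, 10.47 and 8.87 in cyclic gilts. Its fit was -0.20 ± 0.471 (SD, n = 4), with an unadjusted p of 0.0462 and an adjusted p of 0.271. In both probes the pregnant gilt was lower on arrays 1 and 3 and higher on arrays 2 and 4.

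The DM chains differed least between the groups. SLA-DMB (A_72_P375073) had log2 levels of 10.55, 10.34, 10.40 and 9.86 in the pregnant gilts of arrays 1 to 4, against 10.50, 10.20, 10.59 and 9.85 in the cyclic gilts. The groups overlapped almost fully, with a fit of 0.01 ± 0.141 (SD, n = 4) and an adjusted p of 0.976 (limma). Its other probe, A_72_P629649, had ratios of -0.23, -0.05, -0.38 and 0.04 and a fit of -0.15, with an adjusted p of 0.365. SLA-DMA (A_72_P025111) had levels of 10.22, 10.19, 10.29 and 9.18 in pregnant gilts, against 10.23, 9.87, 10.35 and 9.03 in cyclic gilts. Both gilts of array 4 were about 1 unit below the rest, and the bright spots around this one were shifted by -0.45 on that array. The fitted ratio of SLA-DMA was 0.10 ± 0.173 (SD, n = 4), with an adjusted p of 0.533. The other SLA-DMA probe, A_72_P427349, was well above background on 3 arrays in each group and was not tested. Its ratios were 0.07, -0.09, -0.58 and -0.08, the last from a spot in the dim area.

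**Figure D2:**
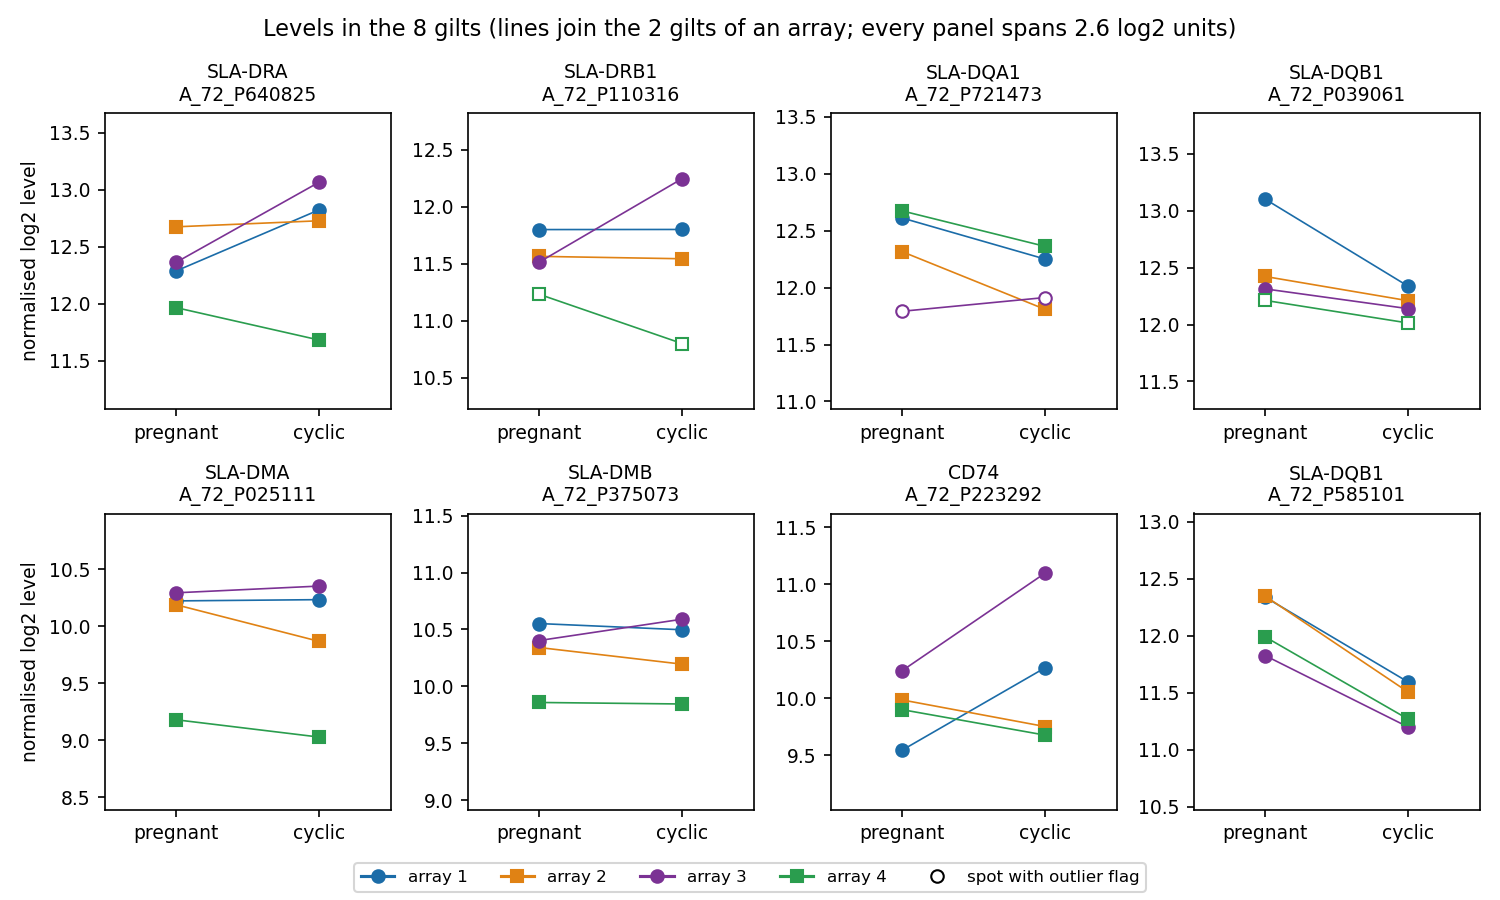
Normalised log2 level (vertical axis, with the same span in every panel) of the brightest tested probe of each class II gene, and of A_72_P585101 of SLA-DQB1, in pregnant (left) and cyclic (right) gilts, with a line joining the gilts of an array and open symbols for flagged spots. Pregnant gilts lie between 11.83 and 12.35 and cyclic gilts between 11.20 and 11.59 in the last panel, and in the other panels the groups overlap.

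For most probes the sign of the ratio went with the array. Of the 28 probes, with flagged spots kept, 21 were negative on array 1 and 26 on array 3, against 4 on array 2 and 1 on array 4. The share of all probes negative on each array is not given here. Some genes outside class II, among them GH1, CGA and IRF1, were also negative on arrays 1 and 3 and positive on arrays 2 and 4. All 13 DR and CD74 probes were negative on array 1, all 13 were negative on array 3 and all 13 were positive on array 4, while 2 of 13 were negative on array 2. Of the 11 DQ probes 6, 0, 9 and 0 were negative on arrays 1 to 4, and of the 4 DM probes 2, 2, 4 and 1. Pregnant RNA was in Cy3 on arrays 1 and 3 and in Cy5 on arrays 2 and 4, so the pattern runs with the dye as well as with the pairs of gilts. The fitted dye effect was positive in 16 of the 17 tested class II probes. It was above 0.3 in 8 of them, against 4.39% of all tested probes, and its SD over all tested probes was 0.20. With 4 separate pairs of gilts, a dye effect and a difference between the pairs cannot be told apart for these genes. If pregnant RNA was in Cy3 on all arrays, as the labelling protocol reads, the ratios of arrays 2 and 4 take the opposite sign. SLA-DRA was then -0.37 and CD74 -0.51, with unadjusted p of 0.0473 and 0.0143 and an adjusted p of 0.848 for each (limma). Under that reading the pattern cannot be told apart from a group difference.

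Outlier flags were frequent on the class II probes. Of their 112 spots 30 (26.8%) were flagged, all 30 in Cy5 and 4 in Cy3 as well. The share was 4.67% over all probes and 31.0% over the brightest 10% of probes, and no spot was saturated. By gene, flags fell on 13 of 28 spots of SLA-DRA, 10 of 28 of SLA-DQA1, 5 of 16 of SLA-DRB1 and 2 of 16 of SLA-DQB1, and on 0 of 8 for SLA-DMA, SLA-DMB and CD74. With flagged spots kept, 27 probes could be tested, of which 13 had a positive ratio, 6 had an unadjusted p under 0.05 and 0 an adjusted p under 0.05 (limma). Over all 23913 probes of that fit 4488 (18.8%) had an unadjusted p under 0.05 and 0 (0%) an adjusted one. The median over the 27 probes was -0.00, and over the brightest tested probes of the 7 genes it stayed at 0.01.

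To see whether the chains of a molecule moved together, the gene averages over all probes, flagged spots kept, were set against each other array by array. They were -0.33, 0.02, -0.52 and 0.41 for SLA-DRA on arrays 1 to 4, and -0.11, 0.07, -0.86 and 0.57 for SLA-DRB1. The DR chains thus had the same sign on each array, as had the averages of SLA-DQA1 and CD74. They differed by -0.22, -0.05, 0.34 and -0.15, SLA-DRA over SLA-DRB1. The mean of -0.02 ± 0.25 (SD, n = 4) had an exact sign-flip permutation p of 0.875. A large p from 4 arrays cannot show that the chains moved together. The DQ chains differed by 0.42, -0.17, 0.58 and 0.18, SLA-DQB1 over SLA-DQA1, a mean of 0.25 ± 0.32 (SD, n = 4) with an exact p of 0.25. SLA-DQB1 stood 0.51, 0.36, 0.96 and -0.01 above SLA-DRB1, also with an exact p of 0.25. The largest gap was between SLA-DQB1 and CD74, at 1.07, 0.22, 0.83 and 0.34, a mean of 0.61 with an exact p of 0.125. CD74 itself averaged -0.68, 0.22, -0.72 and 0.22, and SLA-DMA and SLA-DMB differed by at most 0.12 on an array. These are 8 pairs in all, and 4 arrays cannot give a two-sided exact p below 0.125, so no pair could pass a threshold of 0.05. The other 3 pairs, SLA-DQA1 over SLA-DRA, SLA-DRA over CD74 and SLA-DMA over CD74, had exact p of 0.25, 0.375 and 0.5.

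**Figure D3:**
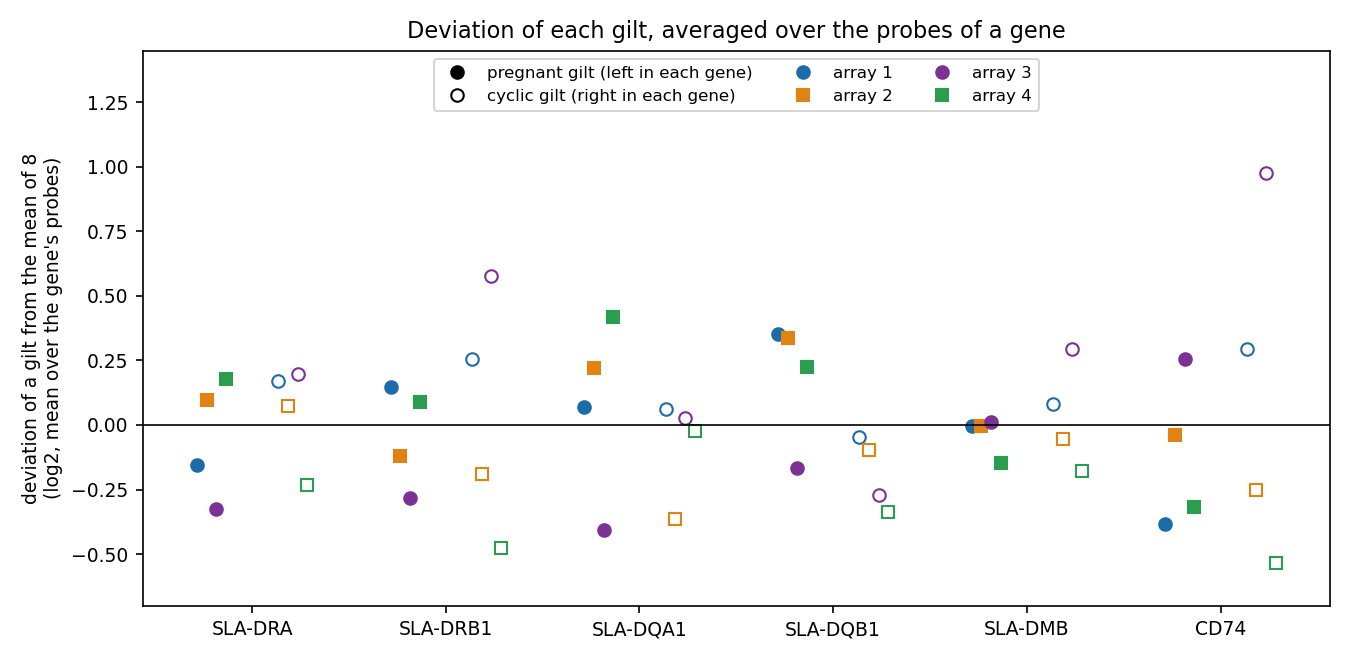
Deviation of each gilt from the mean of the 8 gilts on the log2 scale (vertical axis), averaged over the probes of a gene outside the dim area, with filled symbols for pregnant gilts to the left of open symbols for cyclic gilts. No dye effect was taken off. The cyclic gilt of array 3 is highest for CD74, at 0.98, and for SLA-DRB1, at 0.58, while for SLA-DQB1 3 of the 4 pregnant gilts lie above all cyclic gilts.

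The gilts spread widely within each group. For CD74 the deviation from the mean of the 8 gilts was -0.38, -0.04, 0.25 and -0.32 in the pregnant gilts of arrays 1 to 4, against 0.29, -0.25, 0.98 and -0.54 in the cyclic gilts. In these values the cyclic gilts of arrays 3 and 4 differed more from each other than any pregnant gilt from any other. No dye effect was taken off the deviations in this paragraph. The cyclic gilt of array 3 was in Cy5 and that of array 4 in Cy3, and the CD74 probes had dye effects of 0.51 and 0.41. The spread between gilts without the dye is not given here. For SLA-DRB1 the deviations were 0.15, -0.12, -0.28 and 0.09 in pregnant gilts, against 0.26, -0.19, 0.58 and -0.48 in cyclic gilts. SLA-DRA had -0.16, 0.10, -0.32 and 0.18 in pregnant gilts, against 0.17, 0.07, 0.20 and -0.23 in cyclic gilts. In these 3 genes the cyclic gilt of array 3 was the highest of the 8, and the cyclic gilt of array 4 was the lowest or the next to lowest. SLA-DQB1 had another order, with 0.35, 0.34, -0.17 and 0.22 in pregnant gilts, against -0.04, -0.10, -0.27 and -0.34 in cyclic gilts. SLA-DQA1 had 0.07, 0.22, -0.41 and 0.42 in pregnant gilts, against 0.06, -0.37, 0.03 and -0.02 in cyclic gilts, and here the groups overlapped.

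Probes of a gene did not always agree on a gilt. The SD of single probes around the gilt's average was 0.104 for CD74, 0.150 for SLA-DQA1, 0.166 for SLA-DRB1, 0.178 for SLA-DMB, 0.213 for SLA-DQB1 and 0.229 for SLA-DRA. The average includes the probe itself, which lowers the SD of genes with few probes. CD74 and SLA-DMB had 2 probes and SLA-DRA had 7, so these SDs are not on equal terms. The SLA-DQB1 probe A_72_P631166 lay 0.64 below the gene's average over its 4 probes, itself included, in the pregnant gilt of array 1. The SLA-DRA probe A_72_P640825 lay 0.66 below the average of the 7 probes, itself included, in the pregnant gilt of array 4. The SD between gilts, with no dye effect taken off, was 0.271 for SLA-DQB1, 0.207 for SLA-DRA and 0.147 for SLA-DMB. For SLA-DRA and SLA-DMB the disagreement between probes was thus at least as large as the spread between gilts.

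The levels over the gilts were also compared between genes, as a description, since both gilts of an array share a spot. Each gene's brightest probe without a flag was used, after the mean of each dye was taken off. Over the 8 gilts Pearson's r was 0.97 between SLA-DMA and SLA-DMB, 0.84 between SLA-DRA and SLA-DMA, 0.69 between SLA-DRA and SLA-DRB1 and 0.57 between SLA-DRA and CD74. It was 0.48 between SLA-DQA1 and SLA-DQB1, and it was negative between CD74 and the DQ chains, at -0.82 for SLA-DQA1 and -0.60 for SLA-DQB1. In the probes used for SLA-DMA, SLA-DMB and SLA-DRA the lowest levels were those of both gilts of array 4. On that array A_72_P640825 of SLA-DRA deviated from the average of the gene's 7 probes by -0.66 in the pregnant and -0.53 in the cyclic gilt. Low spots of 1 array thus enter the r values of these genes, and r without array 4 is not given here. Among other named genes, those most like SLA-DRA over the 8 gilts were PAPOLA, FABP5 and CRYL1 (r of 0.98, 0.97 and 0.96). For CD74 they were NISCH, KCNMA1 and HEXA (0.98, 0.97 and 0.95). For SLA-DMA they were JPT1, ST7 and BIN1 (0.99, 0.99 and 0.98), and for SLA-DMB SLC5A10, LOC100152714 and JPT1 (0.97, 0.96 and 0.96). The best of 1326 candidate genes reached such values for each of these 4 genes.

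No gene of the 26 listed as class II regulators and loading factors passed the adjusted test. Of these 9 were on the array under the names used and 8 were tested, 2 with a positive and 6 with a negative ratio. Their median log2 ratio was -0.10, against 0.01 over all tested probes. At an unadjusted p under 0.05 there was 1 positive and there were 2 negative genes of the 8, against 18.1% of all tested probes. IFI30, the thiol reductase that unfolds antigens in endosomes, had ratios of 0.55, 0.70, 0.44 and -0.05 and a fit of 0.41 ± 0.323 (SD, n = 4), with an adjusted p of 0.258 (limma). CTSB, a lysosomal protease, had -0.38 ± 0.424 (SD, n = 3), with an adjusted p of 0.269, and NFYB, a subunit of the factor that binds class II promoters, had -0.27 ± 0.33 (SD, n = 4), with an adjusted p of 0.265. SLA-DOB, a chain of the DM inhibitor DO, had ratios of -0.06, 0.01, -1.28 and 0.15 and a fit of -0.29, with an adjusted p of 0.493. Its low value on array 3 is on the same array as the lowest SLA-DRB1 and CD74 values. CIITA, the master activator of class II genes, the protease genes CTSS and LGMN, SLA-DOA and 6 further class II chain genes had no probe under these names.

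Class I presentation genes, which show peptides from inside the cell, had another order of arrays in their mean ratios. Of 23 listed genes 13 were tested, 7 positive and 6 negative, with a median of 0.07 and mean ratios of -0.13, 0.18, 0.07 and -0.02 on arrays 1 to 4. PSMB10, an immunoproteasome subunit, had a fit of 0.40 ± 0.179 (SD, n = 4) and an adjusted p of 0.235 (limma), while SLA-8 had -0.38 ± 0.287 (SD, n = 4) and 0.252. PSMB8, another immunoproteasome subunit, had an adjusted p of 0.298 and B2M, the light chain of class I, 0.521. Of 7 costimulation genes 5 were tested, 3 positive and 2 negative. CD274, a ligand that restrains T cells, had 0.38 ± 0.323 (SD, n = 4) and an adjusted p of 0.235, and CD83, a dendritic cell maturation protein, 0.30 ± 0.155 (SD, n = 4) and 0.249. Of 16 interferon gamma genes 9 were tested, 6 positive and 3 negative, with mean ratios of 0.23, 0.18, 0.43 and -0.28 on arrays 1 to 4. On arrays 1, 3 and 4 these have the opposite sign to the SLA-DRA, SLA-DRB1 and CD74 averages. GBP2 had an adjusted p of 0.256.

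**Figure D4:**
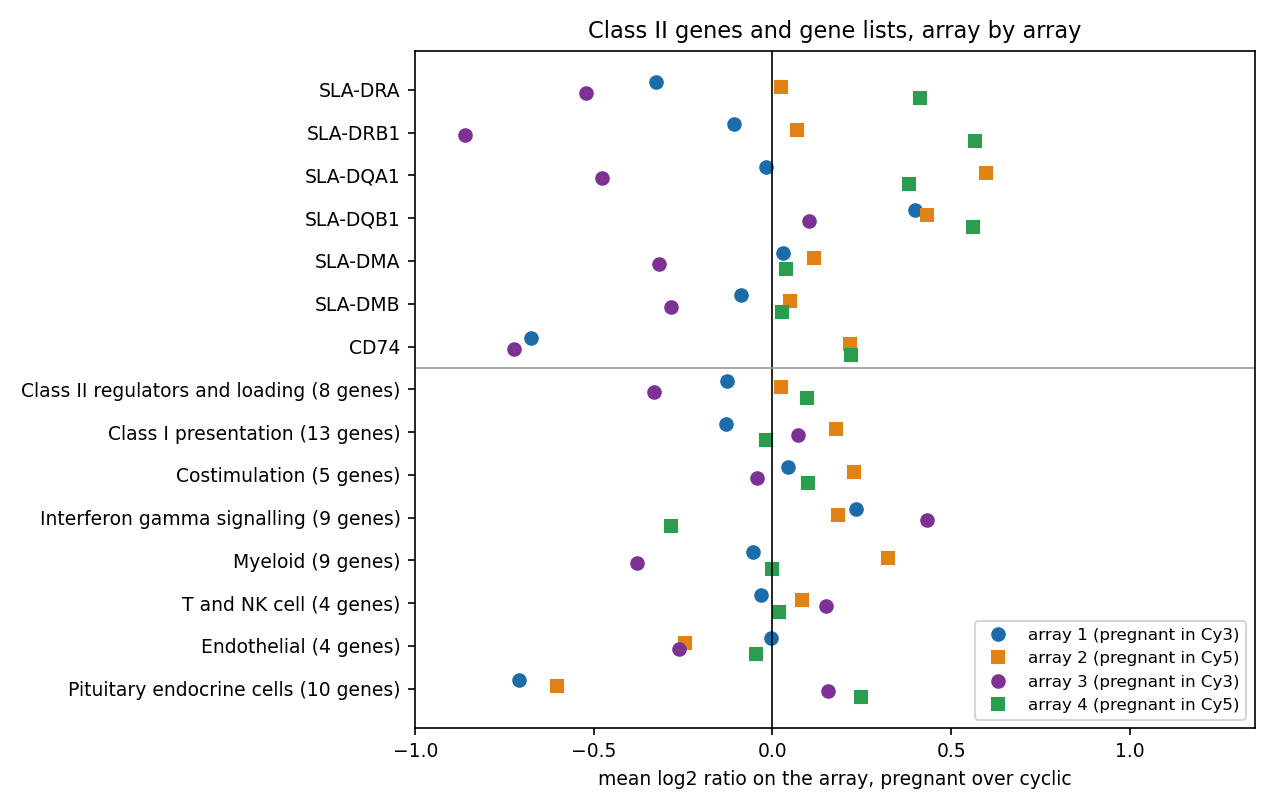
Mean log2 ratio of pregnant over cyclic on each array (horizontal axis) for the class II genes, over all their probes, and for the gene lists with at least 4 tested genes. SLA-DRA, SLA-DRB1 and CD74 lie at -0.86 to -0.11 on arrays 1 and 3 and at 0.02 to 0.57 on arrays 2 and 4, whereas the myeloid genes lie at -0.05, 0.32, -0.38 and -0.00 on arrays 1 to 4.

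Markers of cells that carry class II were measured beside these genes. Of 19 myeloid markers 11 were on the array and 9 were tested, 4 positive and 5 negative, with a median of -0.05 and none at an unadjusted p under 0.05 (limma). Their mean ratio was -0.05, 0.32, -0.38 and -0.00 on arrays 1 to 4, with array 3 lowest as for the class II genes. Their mean log2 level ran from 8.52 to 9.25 in pregnant gilts and from 8.52 to 9.34 in cyclic gilts, highest in the cyclic gilt of array 3. Of 8 B cell markers only CD79A was tested. Its ratio was -0.26 and its level ran from 7.08 to 8.06 in pregnant gilts and from 7.44 to 8.31 in cyclic gilts, again highest in the cyclic gilt of array 3. Of 14 T and NK cell markers 4 were tested, 3 positive and 1 negative, with mean ratios of -0.03, 0.08, 0.15 and 0.02 on arrays 1 to 4. CD247, a chain of the T cell receptor complex, had a fit of -0.39 ± 0.184 (SD, n = 4) and was negative on all 4 arrays, with an unadjusted p of 0.0126 and an adjusted p of 0.235 (limma). CCL5, a chemokine, had 0.32 ± 0.277 (SD, n = 4) and an adjusted p of 0.267, and the cytotoxic protease gene GZMB had 0.24 ± 0.311 (SD, n = 4) and 0.315. CD8A had 0.04 and an adjusted p of 0.830. The CD3 genes CD3E and CD3G, of the same complex as CD247, were well above background on 3 arrays in each group, and CD3D and CD4 on 0 arrays. Of 8 dendritic markers only XCR1 was tested, with ratios of -0.17, 0.20, -0.45 and 0.43, the same signs as the DR and CD74 averages. These signs were not particular to it, since the endocrine genes GH1 and CGA and the myeloid markers CD14 and FCER1G had them too. Other markers of those lists did not, and the share of all probes with these signs is not given here. Of 8 endothelial markers 4 were tested, 1 positive and 3 negative, with mean ratios of -0.005, -0.25, -0.26 and -0.05 on arrays 1 to 4. Their mean level was also highest in the cyclic gilt of array 3, at 9.08. Of 9 folliculostellate markers 2 were tested, both negative, with mean ratios of 0.15, -0.33, -0.54 and -0.01. A lowest ratio on array 3 was thus not particular to the myeloid and B cell markers. What part these cells had in the class II values was not tested.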

How the data were processed

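Per the file headers, the deposited scanner files give the intensity of each spot and its background in both dyes, read by Agilent Feature Extraction 10.7.3.1 on array design 026440. The authors' deposited value table holds log2 ratios, which followed the dyes of the sample labels (slopes of -1 on arrays 1 and 3 and 1 on arrays 2 and 4 against the scanner values). The software behind that table is not stated in the sources used. All 4 arrays share 1 slide and 1 scan, so neither could be a batch.

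Median signals were corrected by normexp (offset 50) and normalised by loess without control spots, flagged spots were left out, and spots of a probe were averaged. Probes were fitted in limma 3.58.1 (R 4.3.3) with a dye effect beside the group difference. Of 43603 probes 21627 were tested, 19880 on 4 arrays and 1747 on 3, and p was adjusted over them by Benjamini-Hochberg. Levels were channel values after loess and Aquantile scaling. The fit was tested on simulated data. Errors are SD over arrays or gilts unless named as SE.

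Names came from the NCBI table of pig genes (5578 probes, 2459 genes). No genome build is named for the array, so coordinates are not given, and probe sequences were not used here. Each gene is represented by its tested probe of highest mean intensity. Of every list the genes of smallest p are named, with CIITA, CTSS, LGMN, IFI30, SLA-DOA, SLA-DOB and B2M. Some genes that this rule takes are not reported here. The class II genes and the lists were chosen with earlier results of these data known. Alternatives changed the background, normalisation, filters, flags, dye term, dye reading, probe choice, or left out 1 array. The alternatives over all probes with flagged spots kept were chosen after seeing the data.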

Additional observations from a re-analysis of the deposited data

Results flagged for a closer look

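For the 13 class II probes without a flagged spot, the ratios, the pregnant levels and the cyclic levels were each checked for 1 value far from the other 3. Of these 39 sets of 4 values 4 held one, where chance gives about 1 in 20 (1.95 of 39). The sets are not independent, since a ratio is the difference of the pregnant and cyclic levels, which share spots. The counts thus cannot show an excess. For the SLA-DMA probe A_72_P025111 the pregnant gilt of array 4 had a log2 level of 9.18, with the other pregnant gilts at 10.19 to 10.29, and the cyclic gilt of that array was low too, at 9.03. For the other SLA-DMA probe, A_72_P427349, the pregnant gilt of array 4 had 6.15, with the others at 7.77 to 8.02. For the SLA-DQA1 probe A_72_P750437 the cyclic gilt of array 4 had 7.13, with the other cyclic gilts at 10.20 to 10.80. The spots of A_72_P427349 and A_72_P750437 lay in the dim area of array 4. For the SLA-DQA1 probe A_72_P763148 the pregnant gilt of array 3 had 9.70, with the other pregnant gilts at 10.26 to 10.33.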

How the results depend on the processing

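No class II gene passed the adjusted test under any alternative for its brightest tested probe. The count over all probes was 0 as analysed, 1 with a normexp offset of 0, 1 without background correction, 2 without a dye effect and 1046 of 19880 probes in a separate-channel fit, and it ran from 0 to 3401 when 1 array was left out. The 3401 (of 20323) came without array 1, and 4 without array 3. Probes at an unadjusted p under 0.05 were 3904 as analysed, 2555 under median centring, 1012 with pregnant RNA read as Cy3 on all arrays, and 894 to 6858 with 1 array left out (limma). The SLA-DQB1 probe A_72_P585101 passed in the separate-channel fit (0.73, adjusted p of 0.0142) and without array 1 (0.71, adjusted p of 0.0140), and over its alternatives the adjusted p ran from 0.0140 to 0.973. Reading pregnant RNA as Cy3 on all arrays reversed it to -0.048, and likewise SLA-DQA1 to -0.15, SLA-DMA to -0.14 and SLA-DMB to -0.073. The same reading made SLA-DRA (-0.37), SLA-DRB1 (-0.25) and CD74 (-0.51) wider and SLA-DQB1 (0.24) narrower, each with an adjusted p of 0.848 (limma). SLA-DQA1 was also negative in probe A_72_P750437 (-0.059), and SLA-DMA in the mean of all its probes with flags kept (-0.034). SLA-DMB, 0.01 as analysed, was -0.0052 with a normexp offset of 0, -0.011 with background subtracted, -0.012 with processed signals and in the deposited table, -0.15 in probe A_72_P629649 and -0.073 in the mean of its probes, tested or all. With 1 array left out it ran from -0.054 to 0.067. SLA-DRA, SLA-DRB1, SLA-DQB1 and CD74 kept their sign under 22, 17, 19 and 21 alternatives, but not their size: under median centring SLA-DRA was -0.095, SLA-DRB1 -0.053 and CD74 -0.16, and with flagged spots kept SLA-DRB1 was -0.070. They ran from -0.37 to -0.069 for SLA-DRA, -0.25 to -0.033 for SLA-DRB1, 0.17 to 0.73 for SLA-DQB1 and -0.51 to -0.16 for CD74. Several alternatives cannot change a probe's ratio, so the counts overstate how often the sign was tested. SLA-DRA stayed at -0.25 and CD74 at -0.28 with Aquantile scaling, with flagged spots kept, with other filters on dim probes and without the dye effect. The deposited table repeated the ratios of the processed signals. Single untested probes are not among these alternatives, and the SLA-DRA probe A_72_P176171 was positive with flagged spots kept (0.060). The lowest adjusted p of CD74 was 0.0717, without array 1. The causes were not tested. For SLA-DRB1, SLA-DQA1 and SLA-DQB1, whose brightest tested probe has 3 arrays, the separate-channel fit and several fits with 1 array left out gave no value. The ratio of an array already pairs its 2 gilts, so the limma fit as analysed is a paired one.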

Other observations

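Further genes most like a class II gene over the gilts, by the level of its brightest tested probe where that probe had a flagged spot and 6 gilts were left, were GLUL, GPSM3 and MFGE8 for SLA-DRB1 (Pearson's r of 1.00, 0.99 and 0.99), JUN, SELENOT and GADD45A for SLA-DQB1 (0.99, 0.99 and 0.98) and SLC7A2, CERCAM and FTH1 for SLA-DQA1 (0.97, 0.97 and 0.96). The candidates were 1455 genes for SLA-DRB1 and SLA-DQB1 and 1347 for SLA-DQA1, and such values are a description only.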
